A study of Mus musculus with 2 samples.

Results

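The genes described are Fgf4, the 4 FGF receptor genes Fgfr1, Fgfr2, Fgfr3 and Fgfr4, and 5 genes that FGF signalling through ERK is known to induce, Spry2, Spry4, Dusp6, Etv4 and Etv5. They were chosen by name, and every probe of each gene was taken through the accession that the scanner files give for it. They are 10 of the 20274 genes with a named probe and 10 of the 16069 genes tested, with 16 probes on 25 spots. The series compared mouse embryonic stem cells (ESCs) labelled as overexpressing HDAC6, called OE here, with wild-type (WT) ESCs. HDAC6 is a deacetylase that acts mainly in the cytoplasm. Both groups were B6C3F1 cells of passage 26, kept with LIF on mouse embryonic fibroblasts (feeders) whose division had been stopped with mitomycin C. On each of 2 arrays, OE RNA (Cy5) was hybridised together with WT RNA (Cy3). How HDAC6 was overexpressed and whether the OE cells are 1 clone is not given in the sources used here.

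FGF4 is a secreted growth factor that ESCs make and respond to. It binds receptor tyrosine kinases of the FGFR family together with heparan sulphate, and the receptors activate RAS, RAF, MEK and ERK. Active ERK induces transcription factors of the ETS family (Etv4 and Etv5) and inhibitors that damp the pathway again, the Sprouty proteins and the ERK phosphatase Dusp6. In the mouse blastocyst FGF4 from the epiblast is known to direct neighbouring cells to primitive endoderm, and in ESCs the pathway is known for moving cells out of self-renewal.

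Each value is the log2 ratio of the processed OE signal over the processed WT signal, given per array and as a mean ± SD of 2 arrays. The deposited series table runs the other way, as WT over OE. The intervals and adjusted p-values come from limma over all 16069 genes (Benjamini-Hochberg), with 1 residual degree of freedom and 4.60 from the prior, and a gene was called at an adjusted p under 0.05. The labels call the arrays biological replicates, but no source used here says that the cultures were separate, so the p-values may measure a technical spread. OE carried Cy5 on both arrays with no dye swap, so dye effects remain in every ratio. Between 68.8% and 69.6% of spots were well above background in each channel, and the ratios of the 2 arrays had the same sign in 85.8% of genes. Hdac6 itself had 0.16 in replicate 1 and -0.038 in replicate 2 by its brighter probe and 0.18 and -0.0055 by the other. Whether these probes see the introduced transcript is not given in the sources used here, so they do not check the labels, and OE means the channel labelled so.

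Markers of other cell types were higher in the OE channel, and these values stand beside all results below. Of 21 primitive endoderm markers 20 were called higher and 1 lower, with a summed signal of 244677 to 256810 in OE against 50797 to 57976 in WT. Cubn averaged 5.51 and Gata4 4.96. Ttr was at least 31.2-fold higher by the processed signals (mean of 2 arrays), being not well above background in WT, as was Apoa1. Of 24 fibroblast markers 22 were called higher and 0 lower, with a summed signal of 340849 to 445073 in OE against 170486 to 193710 in WT, and Col1a2 (1.71), S100a4 (1.68) and Lum (1.52) differed most. All 24 were well above background in both channels on both arrays. Of 13 trophectoderm markers tested 11 were called higher and 0 lower, with a summed signal of 82165 to 89242 in OE against 60800.5 to 62774 in WT, led by Tead4 (1.28), Krt7 (1.23) and Cdx2 (1.22). Of 14 ESC markers 4 were called higher and 6 lower, with a summed signal of 220301 to 237137 in OE against 240256 to 257214 in WT. Tdgf1 alone had 22834 and 23460 in OE, against 48217 and 51758 in WT. On each array its gap was larger than that between the sums, so the lower OE sum rests on this probe. Levels of different probes are not comparable. Over all genes tested, 21.2% were called higher and 29.9% lower. The balance of the ESC markers depended on the dye step, which in the deposited signals includes a lowess correction of the ratio for brightness. With normexp signals, median centring and no loess, 8 ESC markers were higher and 3 lower, and their median was 0.55 in place of 0.056. In that setting 30.4% of all genes were called higher and 29.9% lower. With the processed signals Klf4 (0.97) was higher, and Tdgf1 (-1.11) and Fbxo15 (-0.74) were lower. Without loess Tdgf1 had -0.15 and was not called (limma adjusted p = 0.179), while Klf4 (1.11) and Fbxo15 (-0.45) kept their calls. Pou5f1 (0.22) and Sox2 (0.18) were not called, and Nanog (-0.29) was called lower just under the threshold, and all 3 depended on the setting. With normexp and loess Nanog had -0.044 and was not called (limma adjusted p = 0.698), and Pou5f1 had 0.37 and was called higher (limma adjusted p = 0.00775). Without loess all 3 were called higher, Pou5f1 at 1.06, Nanog at 0.92 and Sox2 at 0.59. All 14 ESC markers were well above background in both channels. The part of other cell types in the results on the FGF genes was not tested.

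In OE cells 6 of the 10 genes were higher (Fgfr2, Fgfr3, Fgfr4, Spry2, Spry4 and Etv4), 2 were lower (Etv5, and Fgfr1 by its brightest probe), and Fgf4 and Dusp6 did not pass the test. Among all genes tested, 21.2% were called higher and 29.9% lower, so 51.2% of genes passed in either direction. Spry4 was the only one of the 10 genes to differ at least 2-fold on both arrays, a size that 3.03% of all genes reached as higher and 4.39% as lower. The median ratio of the 10 genes was 0.41, against -0.061 over all genes tested. The ratios spanned -0.75 (Etv5) to 1.54 (Spry4), and the ratio had the same sign on both arrays in 9 of the 10 genes. Among all genes this share was 85.8%. In these 9 genes the OE and WT signals did not overlap over the arrays, as in 72.8% of all genes tested. All 16 probes were well above background in both channels on both arrays. In RNA of a whole culture, fewer cells of a type and less RNA per cell cannot be told apart.

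**Figure D1:**
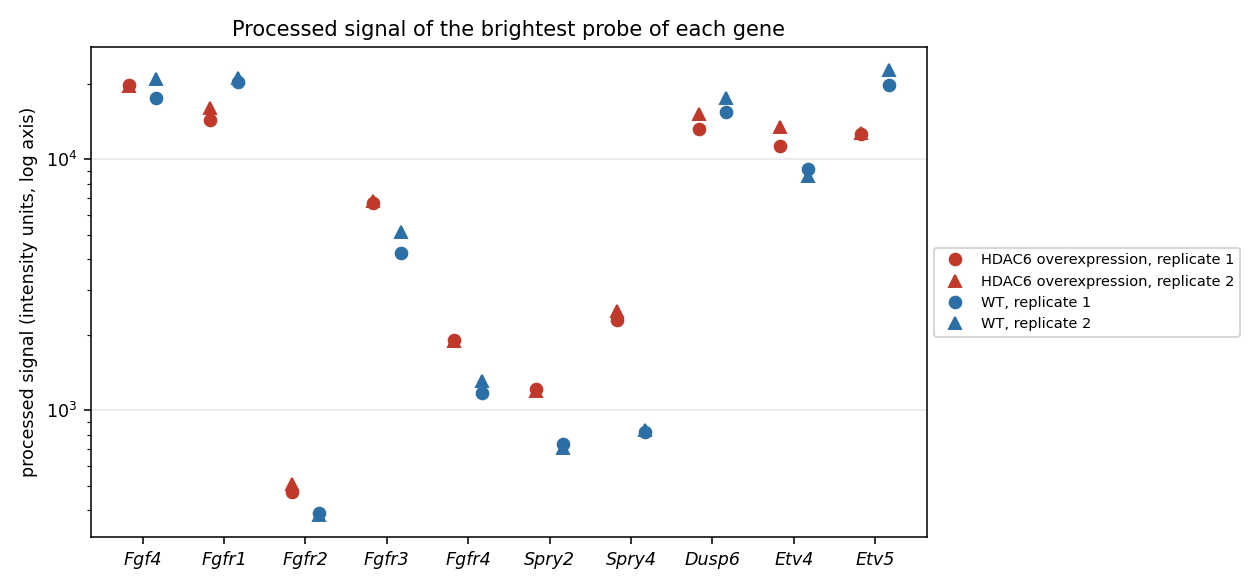
Processed signal (intensity units, log axis) of the brightest probe of each gene, with OE in red to the left of WT in blue, and circles for replicate 1 and triangles for replicate 2. OE lies above WT for Fgfr2, Fgfr3, Fgfr4, Spry2, Spry4 and Etv4 and below it for Fgfr1, Dusp6 and Etv5, and the points of Fgf4 overlap; levels of different genes come from different probes and are not comparable.

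The upstream windows of 3 of the genes called are printed because ETS factors such as Etv4 and Etv5, which moved in opposite directions here, bind DNA at sites built around GGAA or GGAT. The motif searched is a longer form of such a site and reads CCGGAA on one strand and TTCCGG on the other, and the shorter core was not searched. The windows are the 250 bases before an annotated gene start, on the gene's strand, from RefSeq (GRCm38.p6). RefSeq windows were matched for 7 of the 10 genes (9 windows), and Fgfr1, Spry4 and Etv4 were not matched. The 6-base motif was searched on both strands, and 1 of these 9 windows holds it, against 12.0% of all 32851 windows (3952). The match lies upstream of Fgfr4, with its first base at position -178 from the start, and is shown in capitals. A match describes the letters only, and the windows of Spry2 and Etv5 are printed beside it as those of a higher and a lower gene without the 6-base motif.
Fgfr4, chr13:55152568-55152817, plus strand: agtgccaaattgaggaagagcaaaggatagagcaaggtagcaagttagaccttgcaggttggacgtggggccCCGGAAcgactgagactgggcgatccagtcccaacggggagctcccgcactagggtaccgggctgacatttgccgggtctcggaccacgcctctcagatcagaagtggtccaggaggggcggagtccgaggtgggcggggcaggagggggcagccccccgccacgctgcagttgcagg
Spry2, chr14:105896820-105897069, minus strand: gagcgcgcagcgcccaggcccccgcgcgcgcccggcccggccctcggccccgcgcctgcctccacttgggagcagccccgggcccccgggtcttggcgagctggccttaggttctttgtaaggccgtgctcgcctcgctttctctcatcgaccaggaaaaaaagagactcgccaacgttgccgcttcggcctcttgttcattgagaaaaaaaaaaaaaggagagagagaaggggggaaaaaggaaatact
Etv5, chr16:22439571-22439820, minus strand: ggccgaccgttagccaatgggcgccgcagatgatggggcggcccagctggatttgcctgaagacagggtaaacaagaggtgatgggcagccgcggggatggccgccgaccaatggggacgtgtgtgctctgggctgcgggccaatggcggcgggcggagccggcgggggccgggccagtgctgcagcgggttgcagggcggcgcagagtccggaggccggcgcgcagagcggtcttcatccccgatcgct

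Fgf4, the ligand that ESCs themselves secrete, has 1 probe. Its signal was 19831 and 19589 in OE cells, against 17535 and 20809.6 in WT cells. The channels overlapped, with OE higher on replicate 1 and WT higher on replicate 2. The ratios were 0.18 and -0.087, a mean of 0.045 ± 0.19 with a 95% interval of -0.22 to 0.31 (limma adjusted p = 0.74). The interval reaches to a level 1.24-fold higher in OE, and a p above the threshold does not show equal levels. The value depended on the dye step, in which loess flattens the drift of the ratio with signal strength. With normexp background correction, each array centred on its median and no loess, Fgf4 had 0.58 and was called higher (limma adjusted p = 0.000512). With the genes split into 30 brightness bins of equal size by mean signal, the median gene of its bin had 0.47 in that setting.

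Fgfr1, the receptor gene that is widely expressed in the epiblast and in fibroblasts, gave opposite answers by probe. The brightest of its 3 probes had a signal of 14364 and 15966 in OE cells, against 20272.5 and 21116 in WT cells. Its ratios were -0.50 and -0.40, a mean of -0.45 ± 0.066 with an interval of -0.68 to -0.22, and the gene was called lower (limma adjusted p = 0.0103). OE was below WT on both arrays by this probe.

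The second probe of Fgfr1 ran the other way, at 6877 and 5999 in OE cells, against 4879 and 4558 in WT cells. Its mean was 0.45 ± 0.070, called higher in the fit over all 38393 probes (limma adjusted p = 0.0161), in which 23.1% of probes were higher and 23.0% lower. The log2 ratio of the brightest probe minus that of this probe was -0.99 in replicate 1 and -0.80 in replicate 2. The third probe, at 1312 and 1498 in OE cells and 1497 and 1273 in WT cells, had a mean of 0.021 ± 0.30 and was not called. All 3 probes carry the same accession, and their positions in the transcript are not given in the sources used here, so the direction of Fgfr1 is not settled: its mean over probes was 0.0056 (limma adjusted p = 0.965), and the brightest probe had 0.023 without loess. Against genes of like brightness that probe was lower both ways, since the median of its brightness bin was -0.11 with the processed signals and 0.33 without loess. Fgfr1 lies on chromosome 8, where the median ratio of 827 genes was -0.25.

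**Figure D2:**
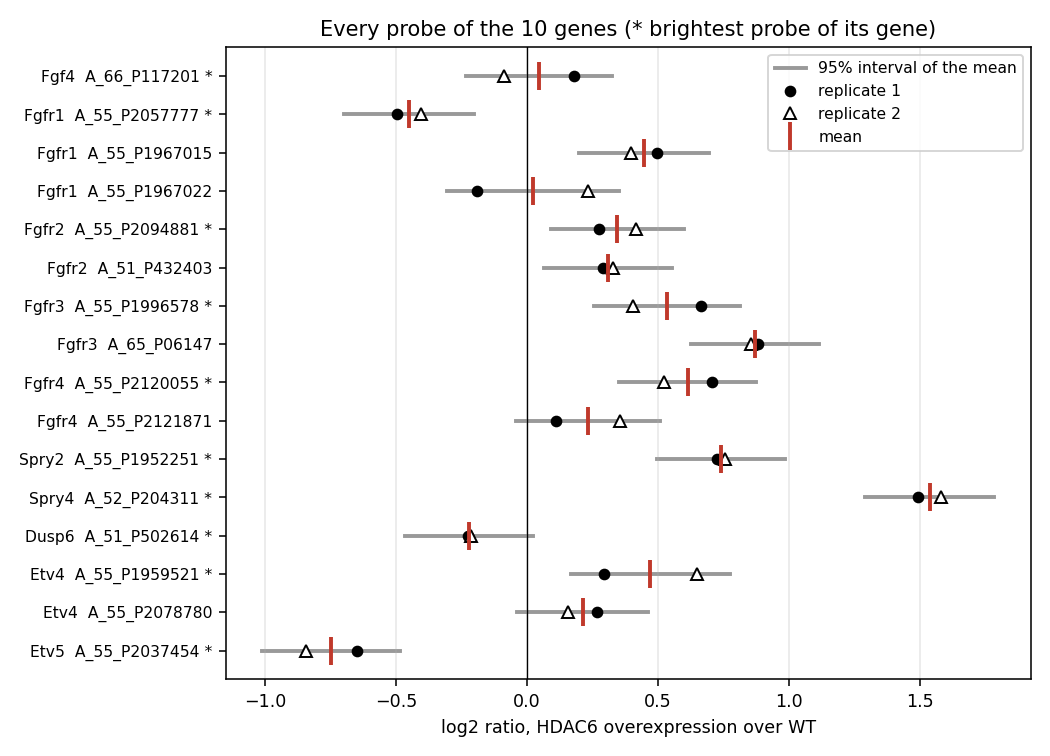
Log2 ratio of OE over WT for each of the 16 probes of the 10 genes, with replicate 1 as filled circles, replicate 2 as open triangles, the mean as a red tick and its 95% interval (limma over all probes) as a grey bar. The 3 Fgfr1 probes lie at -0.45, 0.45 and 0.021, while the probes of Fgfr2, Fgfr3, Fgfr4 and Etv4 all have positive means.

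The other receptor genes were higher in OE cells. Fgfr2, which with Fgfr1 is known to receive the FGF4 signal in primitive endoderm, had 472 and 509.6 in OE cells, against 390.2 and 382 in WT cells. OE was above WT on both arrays, with ratios of 0.27 and 0.41, a mean of 0.34 ± 0.099 and an interval of 0.11 to 0.58 (limma adjusted p = 0.0275). Its other probe, which is spotted 10 times, had 284 and 296 in OE cells, against 232 and 236 in WT cells, and a mean of 0.31 (limma adjusted p = 0.0472). The 10 copies had an SD of 0.098 in log2 ratio on replicate 1, and on replicate 2, after 3 outlier-marked copies were left out, 0.065. With the processed signals both probes thus gave a difference of about the same size, and both were near the threshold. The probe with 10 copies had 0.19 with normexp and loess (limma adjusted p = 0.0960) and 0.14 without loess (limma adjusted p = 0.218). It was called in neither. Without loess the ratio of Fgfr2 was 0.18 and not called (limma adjusted p = 0.129).

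Fgfr3, a receptor best known for restraining bone growth, had 6711 and 6812 in OE cells, against 4241 and 5149 in WT cells. The ratios were 0.66 and 0.40, a mean of 0.53 ± 0.18 with an interval of 0.27 to 0.79 (limma adjusted p = 0.00920). Its dimmer probe had 225 and 258 in OE cells, against 122 and 143 in WT cells, with a mean of 0.87 (limma adjusted p = 0.00183). OE was above WT on both arrays by both probes, by a larger ratio at the dimmer one in the processed signals. With normexp the dimmer and the brighter probe were closer, at 0.59 and 0.50 with loess and 0.56 and 0.53 without. Fgfr4, the receptor for endocrine FGFs in the liver, had 1902 and 1882 in OE cells, against 1167 and 1311 in WT cells. The groups did not overlap, and the mean was 0.61 ± 0.13, or 1.53-fold (interval 1.29 to 1.81; limma adjusted p = 0.00441). The other Fgfr4 probe had 703 and 745 in OE cells and 652 and 583 in WT cells, in the same direction, with a mean of 0.23 that was not called (limma adjusted p = 0.136).

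Among the feedback inhibitors Spry2 and Spry4 were higher in OE cells and Dusp6 was not called. Spry4, an inhibitor of receptor tyrosine kinase signalling to RAS and RAF, had 2294 and 2487 in OE cells, against 816 and 831 in WT cells. The groups were far apart, with ratios of 1.49 and 1.58, a mean of 1.54 ± 0.063, or 2.90-fold (interval 2.48 to 3.39; limma adjusted p = 0.000252). This ratio exceeded that of 98.5% of all genes tested. Spry4 was also the only one of the 10 genes called in a test against a change of 1.5-fold, which 4.15% of all genes passed as higher and 5.86% as lower. The authors' deposited scanner output gives p-values from the error model of the scanner software of 1.33e-09 and 2.87e-10 for Spry4, each within 1 array. By this measure in the authors' deposited scanner output, the brightest probes of Fgfr4, Spry2, Spry4 and Etv5 were under 0.05 on both arrays. The share of all genes under 0.05 on both arrays by this measure is not given here, so the count has no background to stand beside. Those of the other 4 genes called here were not: Fgfr1 (0.0174 and 0.0517), Fgfr2 (0.190 and 0.0502), Fgfr3 (0.00186 and 0.0515) and Etv4 (0.153 and 0.00232). The dimmer Fgfr3 probe was under 0.05 on both arrays by the same error model (0.000431 and 0.000568). By that model the other Fgfr4 probe (0.594 and 0.0886) and the other Etv4 probe (0.192 and 0.446) were under it on neither array. The Fgfr1 probe called higher was under it on replicate 1 only (0.0179 and 0.0559, same model). The dimmest Fgfr1 probe was under it on neither array (0.351 and 0.255, same model). For the Fgfr2 probe with 10 copies this measure is not given here. Spry2, the paralogue of Spry4, had 1215 and 1192 in OE cells, against 735 and 706 in WT cells. OE was above WT on both arrays at a nearly equal ratio, 0.73 and 0.76, a mean of 0.74 ± 0.021, or 1.67-fold (interval 1.43 to 1.95; limma adjusted p = 0.00181).

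Dusp6, the cytoplasmic phosphatase that inactivates ERK, had 13198 and 15169 in OE cells, against 15442 and 17616 in WT cells. OE lay below WT and the groups did not overlap, though OE of replicate 2 and WT of replicate 1 came close. The ratios were -0.23 and -0.22, a mean of -0.22 ± 0.0076 with an interval of -0.44 to 0.0011 (limma adjusted p = 0.0869). With normexp background correction and loess it was called lower at -0.23 (limma adjusted p = 0.0450), and without loess it was 0.14 and not called. The direction of Dusp6 thus depends on the dye step, in a brightness bin whose median was -0.10 with the processed signals and 0.25 without loess.

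The ETS factors Etv4 and Etv5, paralogues of the PEA3 group, went opposite ways. Etv4 had 11255 and 13413 in OE cells, against 9181 and 8566 in WT cells. The groups did not overlap, and the ratios of 0.29 and 0.65 gave a mean of 0.47 ± 0.25 with an interval of 0.18 to 0.76 (limma adjusted p = 0.0199). The second Etv4 probe, at 10573 and 11082 in OE cells and 8781 and 9947 in WT cells, had ratios of 0.27 and 0.16 and was not called (limma adjusted p = 0.136). Etv4 lies on chromosome 11, whose 1295 genes had a median of -0.51, the lowest of the 20 chromosomes measured, with 115 called higher and 867 lower. The ratio of Etv4 exceeded that of 93.6% of the genes of its chromosome.

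Etv5 had 12587 and 12682 in OE cells, against 19759 and 22749.8 in WT cells. OE was below WT on both arrays with a wide gap, at ratios of -0.65 and -0.84, a mean of -0.75 ± 0.14 with an interval of -0.99 to -0.50 (limma adjusted p = 0.00233). OE was 1.68-fold below WT, and the ratio of Etv5 exceeded that of 10.7% of all genes tested. It kept its direction and its call in every one of the settings tried except the test against 1.5-fold, where it was not called, and without loess it was -0.35 (limma adjusted p = 0.00937), below a bin median of 0.33. The third PEA3 gene, Etv1, was lower as well, with 5056 and 5544 in OE cells, against 7150 and 8077 in WT cells, a mean of -0.52 (limma adjusted p = 0.00583).

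**Figure D3:**
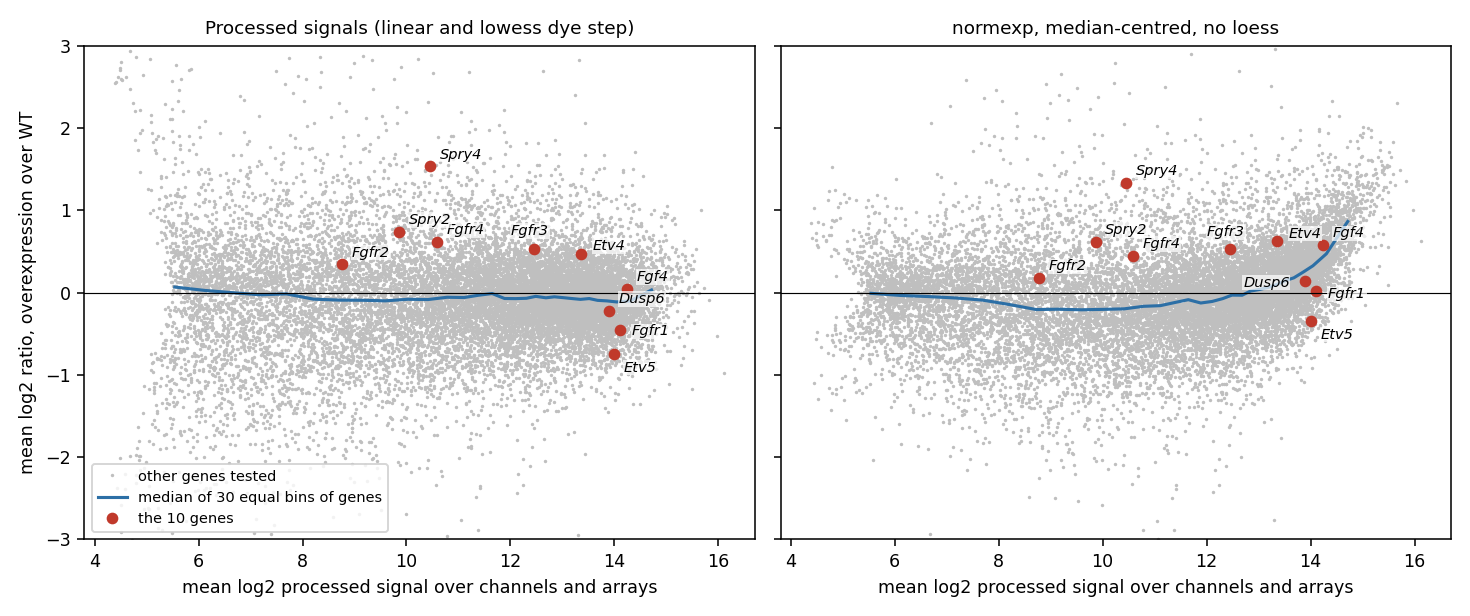
Mean log2 ratio of OE over WT against mean log2 processed signal for all 16069 genes, with the 10 genes in red and a blue line through the medians of 30 bins of equal gene number, for the processed signals (left) and for normexp signals with each array centred on its median and no loess (right). The line bends upward among bright genes without loess, where Fgf4, Fgfr1, Dusp6 and Etv5 lie; 79 genes (left) and 31 genes (right) beyond 3 on the y axis are not drawn.

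Among the 10 genes, the ratio moved most between the processed signals and median centring without loess for the bright Fgf4, Fgfr1, Dusp6 and Etv5. Over 3 ways of normalizing, namely the processed signals, normexp with loess and normexp with median centring alone, Spry4 had 1.54, 1.43 and 1.33, Spry2 had 0.74, 0.72 and 0.62, Fgfr3 had 0.53, 0.50 and 0.53, and Fgfr4 had 0.61, 0.55 and 0.45. By their brightest probes these 4 genes and Etv4, at 0.47, 0.43 and 0.62, were called higher in each. In the fits over all probes the other Fgfr3 probe was called higher in each as well. The other Fgfr4 probe (0.23, 0.18 and 0.089) was called in none, and the other Etv4 probe (0.21, 0.14 and 0.35) only without loess. Normexp with loess called 6 of the 10 genes higher and 3 lower, against 22.1% and 34.5% of all genes, and median centring alone called 6 higher and 1 lower, against 30.4% and 29.9%. Spry4, Spry2 and Fgfr4 also lay far above the median of their brightness bins, which was between -0.20 and -0.081 with and without loess.

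**Figure D4:**
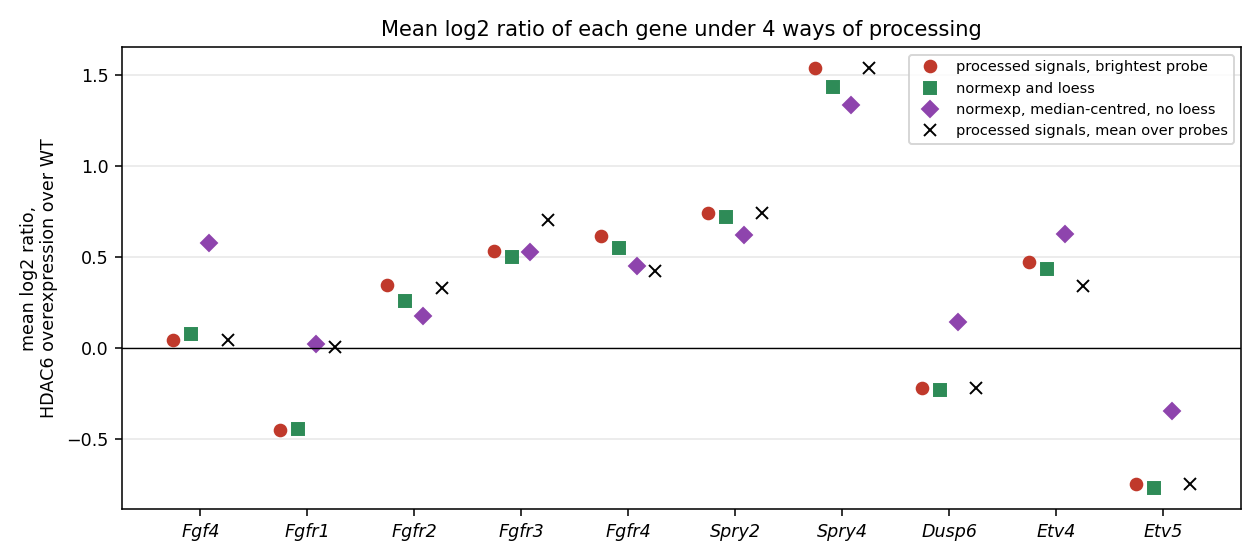
Mean log2 ratio of OE over WT of each gene with the processed signals (red circles), normexp and loess (green squares), normexp with median centring and no loess (purple diamonds) and the mean over a gene's probes (black crosses). Fgf4, Fgfr1 and Dusp6 sit at 0.045, -0.45 and -0.22 with the processed signals and at 0.58, 0.023 and 0.14 without loess, while Spry4 stays between 1.33 and 1.54.

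The rest of the pathway was described over 105 other genes, of which 100 were tested. Of these 39 were called higher, 17 lower and 44 in neither direction, with a median of 0.20. Normexp with loess called 45 higher and 23 lower, against 22.1% and 34.5% of all genes. Median centring without loess called 53 higher and 18 lower, against 30.4% and 29.9% of all genes. The size of a ratio also moved at some probes that are dim in WT. Klb, Fgf3 and Gab2 had 4.48, 2.68 and 0.70 with the processed signals. They had 3.52, 2.09 and 0.30 with normexp and loess, and 3.44, 2.03 and 0.29 without loess. The 5 lists are given in turn beside the 21.2% of genes higher and 29.9% lower over the whole array.

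Of 18 other FGF ligands tested, 7 were called higher and 5 lower, with a median of 0.21. Fgf3, a ligand of early development, had 780.1 and 877 in OE cells, against 127 and 130.2 in WT cells, a mean of 2.68. Fgf10 (1.89) and Fgf7 (1.64), which mesenchymal cells are known to secrete to epithelia, were higher too. Fgf2 was not well above background in WT, and a bound averaged over the 2 arrays in the processed signals was 1.90-fold higher. Replicate 1 alone lay below this bound, with a log2 ratio of 0.69 against a bound of 0.93, and replicate 2 had 1.66. With normexp and loess Fgf2 had 0.49. Fgf1 (-1.61), Fgf14 (-1.44) and Fgf13 (-0.73) were lower. Fgf20, not well above background in OE cells, had an averaged bound of 1.38-fold lower (fitted limma adjusted p = 0.00158). With normexp and loess Fgf20 had -0.42, against a bound of 0.46 in log2. Fgf1 had 541 and 383 in OE cells, against 1245 and 1539 in WT cells. Fgf12, Fgf16 and Fgf21 did not pass the filter on dim probes.

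Of 24 co-receptors and heparan sulphate genes, 15 were called higher and 2 lower, with a median of 0.43. Klb, the beta-klotho co-receptor for endocrine FGFs, had 1621 and 1713 in OE cells, against 72.9 and 76.9 in WT cells, a mean of 4.48. The groups did not overlap, and this was the highest ratio in the 5 lists. Flrt3 (1.83) and Flrt2 (1.29), transmembrane proteins that bind FGF receptors, and Sdc3 (1.21), a heparan sulphate proteoglycan, were higher. Fgfrl1 (-0.64), a receptor-like protein without a kinase, was lower. Kl, the klotho co-receptor, was not well above background in OE cells, with an averaged bound of 1.54-fold lower (fitted limma adjusted p = 0.00388). With normexp and loess Kl had -0.60, against a bound of 0.63 in log2.

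Of 23 genes of the adaptors and of the cascade through RAS to ERK, 1 was called higher and 6 lower, 16 were not called, and the median was -0.16. With normexp and loess 1 was higher and 10 were lower, against 22.1% and 34.5% of all genes. Without loess 4 were higher and 5 lower, against 30.4% and 29.9% of all genes, with a list median of -0.051. The balance of this list thus depended on the dye step. Gab2, a docking protein, had 139.7 and 131 in OE cells, against 83.4 and 83.1 in WT cells, a mean of 0.70. The exchange factor gene Sos2 (-0.75), the scaffold gene Ksr1 (-0.55) and the phospholipase gene Plcg1 (-0.52) were lower.

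Of 18 other feedback inhibitors tested, 6 were called higher and 3 lower, with a median of 0.14. Spred3 (0.82), the MAP kinase phosphatase genes Dusp1 (0.69) and Dusp4 (0.63), and Lrig1 (0.55), which restrains receptor tyrosine kinases, were higher. Dusp14 (-0.78), Spred2 (-0.37) and the ubiquitin ligase gene Cbl (-0.36) were lower. Spry1, the third Sprouty gene tested, had 7646 and 7791 in OE cells, against 8545 and 9429 in WT cells, and at -0.22 it was not called (limma adjusted p = 0.0989). Whether its ratio differs from those of Spry2 and Spry4 was not tested.

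Of 17 other ERK targets and effectors tested, 10 were called higher and 1, Etv1, lower, with a median of 0.37. The AP-1 gene Fosl1 had 2259 and 3353 in OE cells, against 1052 and 975 in WT cells, a mean of 1.44. Ccnd1 (1.06), the cyclin D1 gene, Myc (0.93) and Junb (0.86) were higher, while the immediate early genes Egr1 (-0.012) and Fos (0.21) were not called. Egr1, Fos and Spry1 were chosen after their values were seen.

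**Figure D5:**
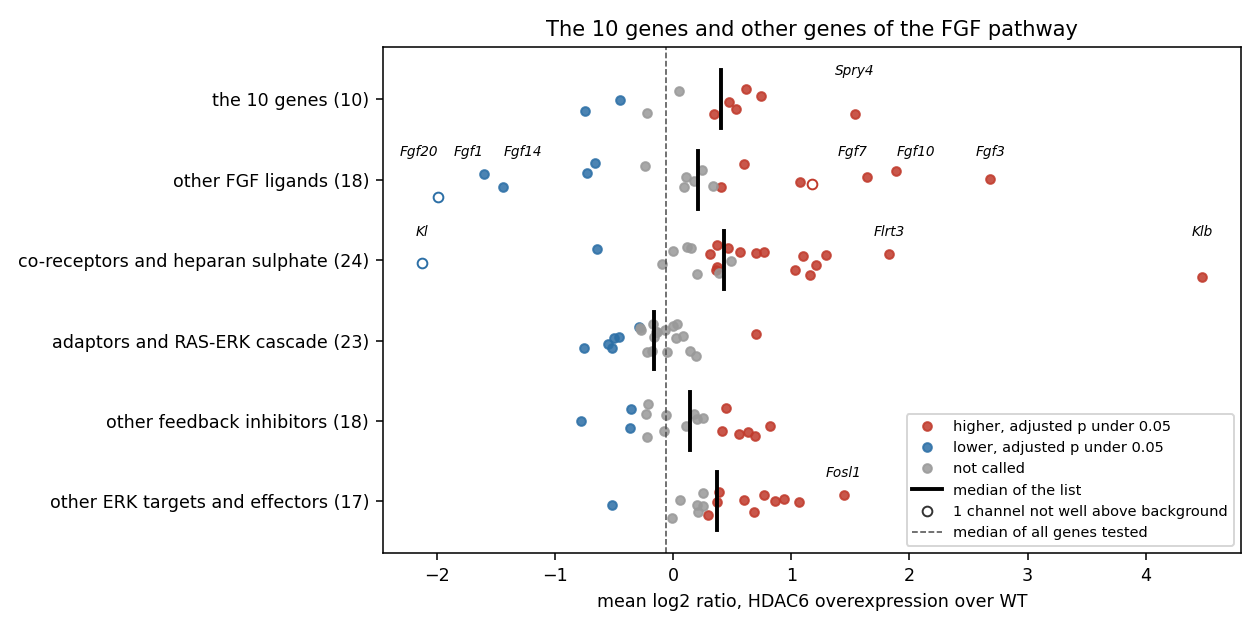
Mean log2 ratio of OE over WT of the 10 genes and of 5 lists of other FGF pathway genes (number tested in parentheses), coloured by limma call, with a black bar at each list's median and a dashed line at the median of all genes tested (-0.061). Open circles are genes with 1 channel not well above background, drawn at their fitted ratio, which is no bound; the medians are 0.41, 0.21, 0.43, -0.16, 0.14 and 0.37 (top to bottom).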

How the data were processed

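Total RNA was measured on 2 two-colour Agilent arrays on 1 slide. Per the file headers, the authors used Agilent Feature Extraction 11.5.1.1. The deposited files give, per spot and channel, a raw median intensity, a local background, and a processed intensity from which background had been subtracted and in which the dyes had been balanced by a linear and a lowess step. They also give a log10 ratio of processed Cy5 over Cy3 and, per the file headers, its p-value from an error model. The deposited series table holds log2 ratios of WT over OE (r = -1 against the scanner ratios on both arrays, column medians -0.0074 and 0.062), and further centring by the authors is not given in the sources used here.

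The ratio used is log2 of processed Cy5 (OE) over processed Cy3 (WT), averaged over the spots of a probe. Control spots and outlier-marked spots (269 and 313) were left out, and 0 spots were saturated. Of 55681 probes, 26762 matched 1 symbol in a RefSeq table (GRCm38.p6) by accession without version, and 28919 matched none. The array's grid used another assembly, so coordinates are given for RefSeq promoter windows only. A gene is its brightest probe, kept if OE on both arrays, or WT on both arrays, was well above background.

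The ratio was tested against 0 with limma 3.58.1 (lmFit, eBayes, two-sided) in R 4.3.3, with Benjamini-Hochberg adjustment over 16069 genes or 38393 probes. The number of arrays limits the precision. On simulated data for this comparison (16069 genes, 200 changed, 10 draws) a log2 change of 0.5 was found in 13.4% of the changed genes, of 1 in 96.8% and of 2 in 100%. False calls were a median of 8.87% of calls and at most 14.2%. The simulated share of changed genes was far below the 51.2% of genes called in the data. The adjustment depends on that share, so these rates do not carry over to the calls made here. Where 1 channel was not well above background, the fold is a bound. It was taken against the higher of that channel's own signal and the lowest signal among probes well above background. It is per channel in the processed signals, with no quantile step between arrays, and open to dye bias. The bound is a mean over the 2 arrays. A single array or a normexp setting can lie below it, as Ttr did at 4.22 with normexp and loess against 4.96 in log2.

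The genes, the lists and the tests were chosen with earlier results of these data known. Named are the 10 genes with every probe, up to 4 called genes per direction of each pathway list and up to 3 called genes of each marker list, by largest ratio, and Hdac6, Pou5f1, Nanog and Sox2. A gene that this rule names in the pathway lists is not reported here. Alternatives changed the normalization, centring, filter, probes per gene, outlier spots, the minimum change and the arrays.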

Additional observations from a re-analysis of the deposited data

How the results depend on the processing

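Of 110 alternative values for the 10 genes, 96 kept the direction and, where there was a test, the side of the threshold, and Fgfr2, Fgfr3, Fgfr4, Spry2, Spry4, Etv4 and Etv5 kept their direction in all of them. The settings were normexp with loess, normexp with median centring and no loess, median-centred processed ratios, the mean over probes, no filter, a filter on both channels, outlier spots kept, the deposited series table with its sign turned, a test against a 1.5-fold change and each array alone (values with no test). Both filter settings, the outlier spots, the series table and the 1.5-fold test left the ratios of the 10 genes as they were, up to rounding. These settings could move a call but not a direction, so the count of 96 overstates how much was tried. Without loess Fgfr1 was 0.023, Dusp6 0.14 and Fgf4 0.58 (called), and only 1 of the 10 genes and 1 probe were lower. With the mean over probes Fgfr1 was 0.0056 and 1 gene was lower. Fgf4 was 0.18 and -0.087 in the arrays taken singly. The test against 1.5-fold left 667 genes higher and 942 lower against 3413 and 4807, 12 and 4 of the other pathway genes against 39 and 17, 1 of the 10 genes (Spry4) higher and 0 lower against 6 and 2, and 1 of their probes higher and 0 lower against 9 and 2. At an unadjusted limma p under 0.05 against no change, 8 of the 10 genes passed, the same genes as after adjustment. Over all genes tested at least 51.2% passed it, since that share passed after adjustment. The probe counts under alternatives were added after seeing the data. No paired analysis was possible because each array's ratio already pairs the OE and WT channels, which leaves 1 group of 2 ratios. For Fgf2, Fgf20 and Kl the signal over background leaves only a bound, and with 2 arrays of 1 dye orientation a dye effect on any single probe cannot be told apart from a difference between the cells.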
